A study of Mus musculus with 12 samples.

Results

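The UDP-glucuronosyltransferases (UGT), glutathione transferases (GST) and sulfotransferases (SULT) of mouse liver were described in 12 livers. The members are all protein-coding genes whose symbol in GENCODE release M21 begins with Ugt1a, Ugt2, Ugt3a, Gsta, Gstm, Gstp, Gstt, Gstk or Sult and a digit. The rule gave 61 genes of the 47729 with a row in the count tables, of which 21 were UGT, 19 GST and 21 SULT genes. No measured value entered the rule. The livers came from the NASH arm of a study that asked whether inhibition of BET bromodomain proteins, which bind acetylated histones, changes steatohepatitis in mice. STAM is a model in which male C57BL/6 mice receive streptozotocin on day 2, which destroys insulin-producing islet cells, and a high fat diet from week 4. The Naive_vehicle group (n = 4) is the healthy group and had neither treatment. The STAM_vehicle group (n = 4) was dosed with a methylcellulose vehicle once a day from week 6 to week 9. The STAM_treated group (n = 4) received the BET inhibitor I-BET151 at 10 mg/kg over the same weeks, suspended in hydroxypropyl methylcellulose with Tween 80, so the carrier was not the one of the vehicle group. Livers were collected at 9 weeks of age. Streptozotocin and diet were given together, so their parts cannot be told apart. Nothing in the labels names the cage or litter of a mouse.

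Conjugation is the second phase of drug metabolism: UGT enzymes attach glucuronic acid from UDP-glucuronate, GST enzymes attach glutathione to electrophiles, and SULT enzymes attach sulfate from PAPS. The products are more soluble in water and leave the cell through bile or blood. Hepatocytes carry most of these enzymes, and bilirubin, bile acids, steroids, thyroid hormones and products of lipid peroxidation are among the natural substrates. Many of the genes differ between male and female mice and respond to nuclear receptors or to NRF2, a factor induced by oxidants.

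Each library held 34711229 to 53365596 counts, and the members took 0.416% to 0.79% of them. Levels below are CPM, the counts scaled to a common library size by the TMM method, and 16823 genes had enough counts to be tested. The third I-BET151 mouse stood apart: the TMM factor of this library was 1.61, where the other 11 had 0.77 to 1.11. Its 10 most abundant genes took 7.95% of counts, where those of the others took 13.5% to 18%. In it 6 hepatocyte markers (Alb, Apoa1, Ttr, Serpina1a, Cyp2e1 and Hnf4a) summed to 21410 CPM, as opposed to 72700 to 87180 CPM in the other I-BET151 mice. Calls in the treated group are therefore also given without it. Sums, medians, directions and most genes not called are given with it only. The same markers summed to 112100 ± 8971 CPM (SD, n = 4) in naive and 63250 ± 8765 CPM in STAM vehicle livers, and none of the 6 passed the test in any comparison. The part of these shifts in the results was not tested. In whole liver, fewer cells of a type and less RNA per cell cannot be told apart. All 12 livers expressed the Y-linked gene Ddx3y (23.1 to 74.0 CPM) and had Xist at 0.0602 to 0.387 CPM, which is the male pattern.

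Of the 61 members, 47 passed the filter on low counts. Per kilobase of annotated exon, and averaged over the 12 mice, the highest were Gstm1 at 605 CPM per kb, Gstp1 at 463, Sult1a1 at 262, Ugt2b5 at 249 and Ugt2b36 at 191 CPM per kb. This order depends on the length used: per kilobase of exon not shared with another gene, Ugt1a1 was at 336 CPM per kb, against 58.1 per kilobase of all its exons, and would stand the third. In STAM vehicle against naive livers, 9 of the 47 tested members (19.1%) had an adjusted p of at most 0.05 in the quasi-likelihood test of edgeR. Of these 6 were higher and 3 lower. Among all tested genes 7.10% passed, 5.72% higher and 1.38% lower. In STAM I-BET151 against STAM vehicle livers, 3 of 47 (6.38%) passed at 0.1, 2 higher and 1 lower, where 0.351% of all tested genes did, 0.0951% higher and 0.256% lower. In STAM I-BET151 against naive livers, 19 of 47 (40.4%) passed at 0.05, 6 higher and 13 lower, where 15.1% of all tested genes did, 9.88% higher and 5.25% lower. The last comparison shares its samples with the other two.

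In I-BET151 against naive livers, the UGT class had 8 genes called lower and 0 higher of 18 tested, the GST class 3 lower and 2 higher of 18, and the SULT class 2 lower and 4 higher of 11. The median log2 fold changes were -0.80, -0.29 and -0.01, where that of all tested genes was 0.06. Differences between classes were not tested. The genes called higher were Gstm3, Gstp3, Sult1e1, Sult2a1, Sult2a2 and Sult2a7. Sult2a1 and Sult2a2 entered the test through the STAM groups alone, and Ugt1a2 through the naive group, where each was high. A filter of at least 10 counts in each liver leaves these genes, Ugt1a10 and Sult3a1 out. The calls in the 3 comparisons were then 6, 3 and 15 of 42, beside 6.35%, 0.436% and 15.3% of all genes. Over all 47 members the median log2 fold change was 0.11 in vehicle against naive and -0.44 in I-BET151 against vehicle livers, with 36 of 47 below 0 in the latter, as were 46.1% of all tested genes. The groups did not overlap for 21, 8 and 19 of the 47 members in the 3 comparisons, in the order above, against 26.4%, 5.04% and 19.8% of all tested genes. Without the third I-BET151 mouse, all 9, 3 and 19 calls were kept and the counts were 18, 8 and 22 of 47. The shares of all tested genes rose as well, to 22.3%, 2.38% and 20.4%. That mouse is in neither group of the first comparison, vehicle against naive livers. All mice were fitted together, so it entered the spread used there. Fits of only the 2 groups compared called 19 of 44, 1 of 46 and 15 of 45 members. Of all tested genes, 23.9%, 0.048% and 7.88% were called in those fits. A member not called in vehicle against naive livers is therefore not shown to be unchanged.

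**Figure D1:**
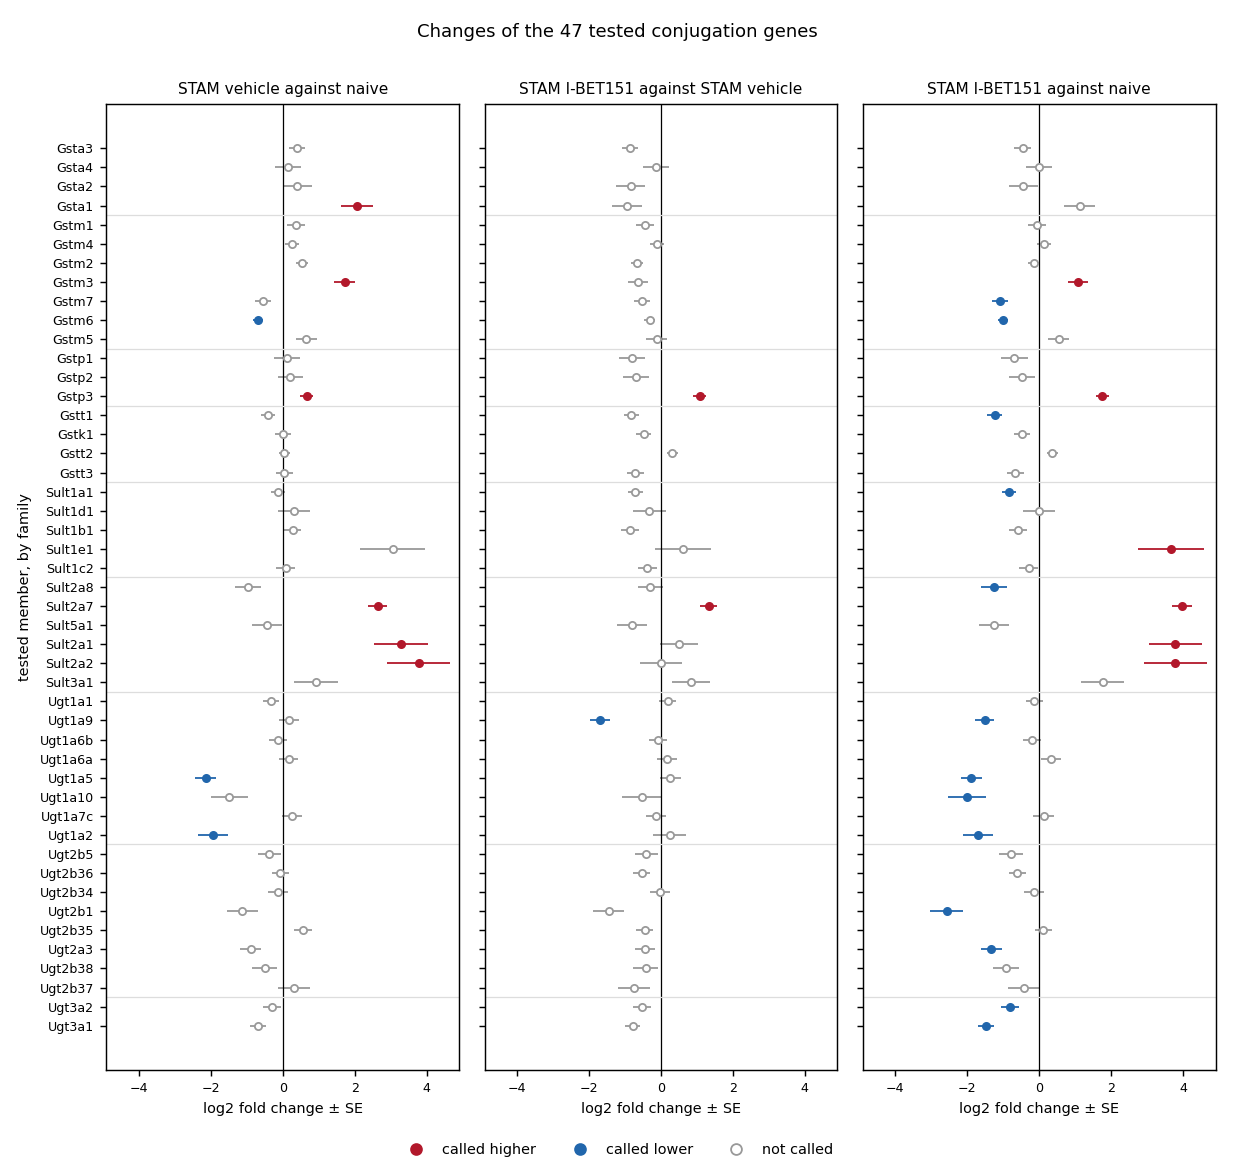
Log2 fold change (x axis, ± standard error) of each tested member (rows, by family and by level within it) in the 3 comparisons, from 4 mice a group. Filled points passed the test, red for higher and blue for lower. Sult2a7 and Gstp3 are red in all 3 panels, and the UGT rows at the bottom hold blue and open points only.

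Summed over a family, levels had their largest SD in the I-BET151 group for 7 of 9 families. The UGT2 genes summed to 2068 ± 446 CPM in naive, 1695 ± 224 CPM in STAM vehicle and 1251 ± 538 CPM in STAM I-BET151 livers (SD, n = 4). The SULT2 to SULT6 genes summed to 496 ± 129, 267 ± 54.9 and 231 ± 105 CPM in the same order, with every STAM vehicle liver below every naive one. The GSTA genes summed to 652 ± 109, 861 ± 73.7 and 484 ± 165 CPM, and here the STAM vehicle livers lay above both other groups. No test was made on these sums. They include the third I-BET151 mouse, which was at 655, 196 and 511 CPM for these families in this order.

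**Figure D2:**
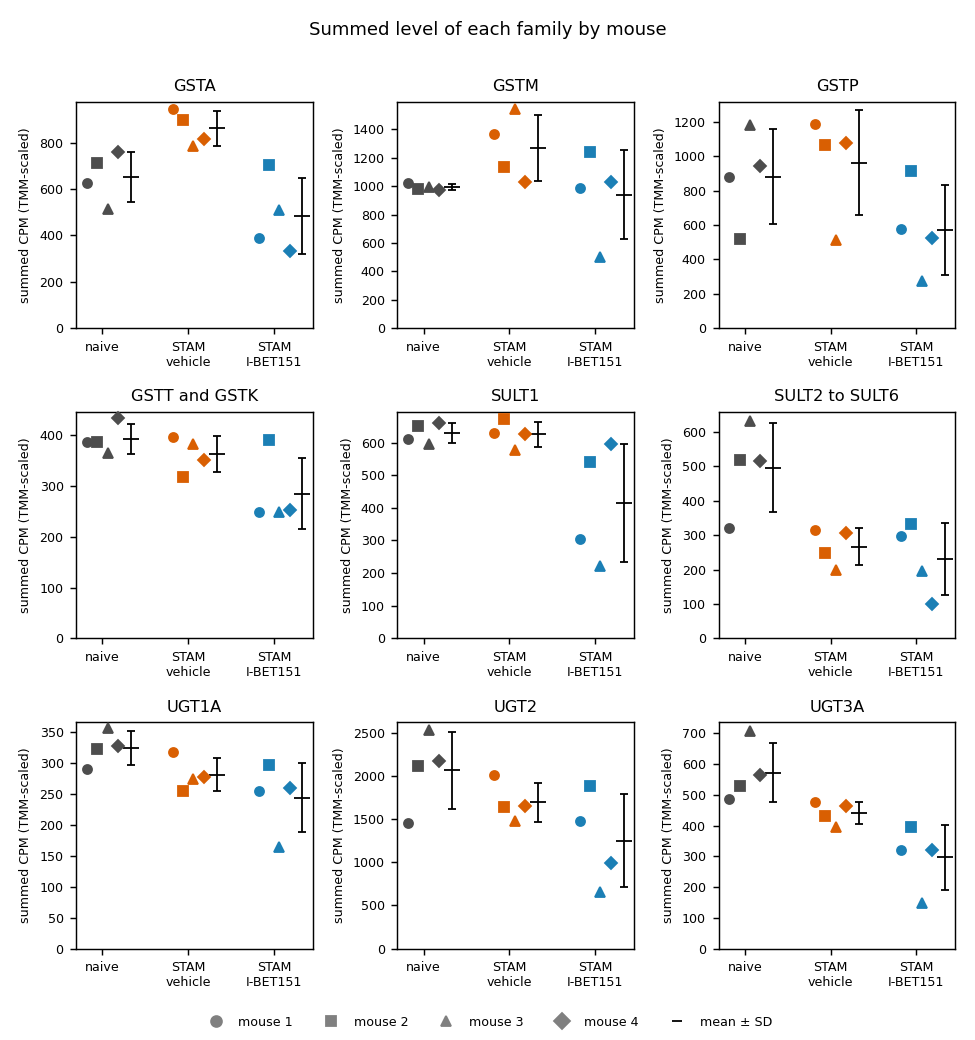
Summed TMM-scaled CPM of each family (y axis) in each mouse, with the mean and SD of 4 mice beside the points and each mouse number marked by its own symbol. UGT3A spans 487 to 708 CPM in naive and 149 to 395 CPM in I-BET151 livers, and the triangle marks the third mouse, which is the lowest I-BET151 liver in 7 of the 9 panels.

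Gstp3 was the only GST gene called in I-BET151 against vehicle livers, and it was called higher in all 3 comparisons. The pi class of mouse GST genes lies in a row on the minus strand of chromosome 19, with Gstp3 at chr19:4057477-4059569 (GRCm38). Pi class enzymes conjugate a wide range of electrophiles, and Gstp1 was the most abundant pi gene here, at 463 CPM per kb against 66.9 for Gstp2. The 250 bases before the RefSeq start of each gene (GRCm38.p6, minus strand) are shown because Gstp3 took a course unlike that of its neighbours. Capitals mark TGAGTCA, the letters to which AP-1 proteins bind, searched on both strands.
Gstp1: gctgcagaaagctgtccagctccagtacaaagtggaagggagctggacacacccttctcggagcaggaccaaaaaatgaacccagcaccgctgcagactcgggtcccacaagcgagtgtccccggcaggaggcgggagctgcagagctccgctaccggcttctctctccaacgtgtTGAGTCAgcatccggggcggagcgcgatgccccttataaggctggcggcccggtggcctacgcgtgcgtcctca
Gstp2: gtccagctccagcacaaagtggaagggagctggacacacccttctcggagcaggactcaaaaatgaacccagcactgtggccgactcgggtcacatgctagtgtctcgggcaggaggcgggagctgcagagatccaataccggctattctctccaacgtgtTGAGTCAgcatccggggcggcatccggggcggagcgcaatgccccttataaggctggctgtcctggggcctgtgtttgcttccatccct
Gstp3: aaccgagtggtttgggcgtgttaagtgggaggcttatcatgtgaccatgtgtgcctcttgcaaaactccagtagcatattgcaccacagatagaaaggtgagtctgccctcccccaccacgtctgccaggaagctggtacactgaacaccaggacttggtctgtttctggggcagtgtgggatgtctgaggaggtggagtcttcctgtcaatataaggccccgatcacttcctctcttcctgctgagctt
The Gstp1 stretch lies at chr19:4037913-4038162, that of Gstp2 at chr19:4042222-4042471 and that of Gstp3 at chr19:4059448-4059697. GENCODE M21 puts the gene starts further upstream, at 4037985, 4046023 and 4059569, so each stretch overlaps its gene as annotated there. TGAGTCA occurs once in the first 2 and not in the third. It was found in 4.46% of all 32851 promoters of this length and before 7 of the 53 members that have a promoter in the table. TGACNNNGC, the core of the element bound by NRF2, was found in 10.2% of all promoters and before 3 members, Gsta3, Gstm5 and Gstm7. GCGTG, the core of the xenobiotic response element, was found in 28.2% of all promoters and before 10 members. Gstp1 and Gstp3 were among these 10, and Gstp2 was not. A match is a description of letters, and these letters were looked up after the sequences had been seen.

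The coding sequences of Gstp1 and Gstp2 were 98.1% identical, and that of Gstp3 was 73.1% identical to Gstp1. The most alike 101-base stretch of 1 coding exon shows how far a read can tell the 3 genes apart, with capitals where a base is not that of Gstp1.
Gstp1: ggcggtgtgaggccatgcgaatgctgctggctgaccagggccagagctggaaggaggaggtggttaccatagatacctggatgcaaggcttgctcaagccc
Gstp2: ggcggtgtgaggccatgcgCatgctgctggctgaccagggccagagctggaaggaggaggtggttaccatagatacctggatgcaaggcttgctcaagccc
Gstp3: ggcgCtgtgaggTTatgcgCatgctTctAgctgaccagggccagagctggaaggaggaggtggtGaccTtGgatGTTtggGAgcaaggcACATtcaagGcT
The stretches lie at chr19:4037296-4037396, chr19:4041590-4041690 and chr19:4058741-4058841 (GENCODE M21, GRCm38, minus strand). Gstp2 differed from Gstp1 at 1 base and Gstp3 at 20 bases. Of the 101-base windows of the Gstp1 and Gstp2 transcripts, 24.9% and 46.8% recur in another gene, so counts of uniquely mapped reads for this pair are uncertain. No window of Gstp3 recurs.

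Gstp3 was at 7.15, 6.99, 6.08 and 7.13 CPM in the 4 naive livers, at 11.6, 12, 10.4 and 9.55 CPM in the STAM vehicle livers, and at 28.7, 22.1, 14.7 and 26.4 CPM in the I-BET151 livers. The 3 groups did not overlap, and the third I-BET151 mouse was the lowest of its group. Its log2 fold change was 0.67 ± 0.18 (SE) in vehicle against naive livers (edgeR adjusted p = 0.0396) and 1.08 ± 0.18 in I-BET151 against vehicle livers (edgeR adjusted p = 0.0366). Without the third I-BET151 mouse the second value was 1.25, with an edgeR adjusted p of 6.9e-04. In I-BET151 against naive livers the log2 fold change was 1.75 ± 0.18 (edgeR adjusted p = 1.3e-04; 1.90 and 3.2e-06 without that mouse). The call against vehicle livers ended without the first I-BET151 mouse or without the fourth vehicle mouse (adjusted p up to 0.133 in edgeR). The call in vehicle against naive livers stood in 4 of 12 fits that left out 1 mouse, and that in I-BET151 against naive livers in all 12.

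Gstp1 took no such course: it was at 794, 465, 1075 and 854 CPM in naive, 1072, 960, 442 and 970 CPM in STAM vehicle and 496, 792, 234 and 452 CPM in I-BET151 livers. All 3 groups overlapped, and the log2 fold change in I-BET151 against vehicle livers was -0.80 ± 0.37 (edgeR adjusted p = 0.569). Gstp2 had a log2 fold change of -0.70 ± 0.36 there (edgeR adjusted p = 0.62). Gstp3 thus stayed a minor pi transcript, at a 12-mouse mean of 14.9 CPM per kb against 463 CPM per kb for Gstp1.

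**Figure D3:**
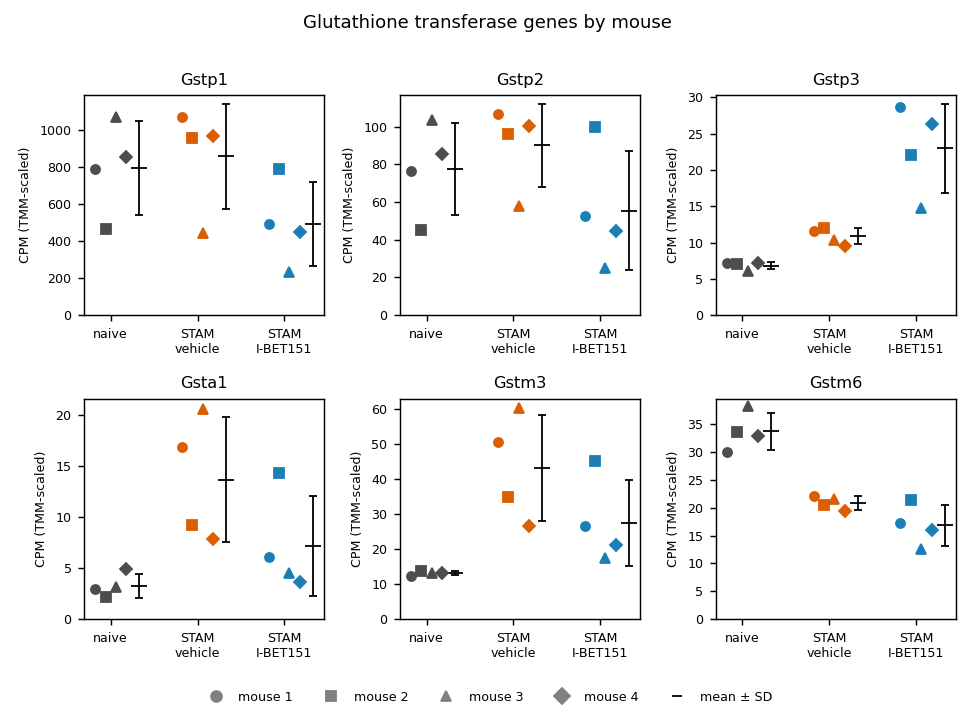
TMM-scaled CPM (y axis, from 0) of 6 GST genes in each mouse, with mean and SD of 4 mice. Gstp3 steps up from 6.08 to 7.15 CPM in naive livers to 14.7 to 28.7 CPM in I-BET151 livers, Gsta1 and Gstm3 are highest in STAM vehicle livers, and Gstm6 is highest in naive livers.

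Among the alpha class, whose enzymes also reduce lipid peroxides, Gsta1 rose in STAM vehicle livers. It was at 2.92, 2.12, 3.17 and 4.89 CPM in naive, 16.9, 9.22, 20.7 and 7.85 CPM in STAM vehicle and 6.07, 14.3, 4.48 and 3.68 CPM in I-BET151 livers. Every vehicle liver was above every naive one, and the I-BET151 livers spanned both groups. On the log2 scale the fold change in vehicle against naive livers was 2.06 ± 0.44 (edgeR adjusted p = 0.0135; 0.0535 without the second naive mouse), and that in I-BET151 against vehicle livers was -0.94 ± 0.42 (edgeR adjusted p = 0.55). Of the 101-base windows of Gsta1, 80.4% recur in another gene, most in Gm3776, so its level is uncertain. Gsta3, the most abundant alpha gene and the one whose enzyme clears aflatoxin epoxide in mice, was at 707 to 860 CPM in STAM vehicle and 308 to 616 CPM in I-BET151 livers. These groups did not overlap, with a log2 fold change of -0.86 ± 0.23 (edgeR adjusted p = 0.208; 0.0876 without the third I-BET151 mouse). Gsta2 had log2 fold changes of 0.40 and -0.84 and Gsta4, whose enzyme removes 4-hydroxynonenal, of 0.14 and -0.15 in vehicle against naive and I-BET151 against vehicle livers, and neither passed.

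The mu class moved in both directions. Gstm3 was at 12.3, 13.7, 13.1 and 13.1 CPM in naive, 50.7, 34.9, 60.4 and 26.5 CPM in STAM vehicle and 26.5, 45.1, 17.5 and 21.1 CPM in I-BET151 livers. Both STAM groups lay wholly above the naive group and overlapped each other. In the test, the log2 fold change was 1.72 ± 0.29 in vehicle against naive (edgeR adjusted p = 0.00354) and 1.07 ± 0.29 in I-BET151 against naive livers (edgeR adjusted p = 0.0237; 1.22 and 0.00877 without the third I-BET151 mouse). The latter call ended without the second, the third or the fourth naive mouse (adjusted p of at most 0.0661 in edgeR). Gstm6 fell, from 30.1 to 38.2 CPM in naive to 19.4 to 22.1 CPM in STAM vehicle and 12.7 to 21.4 CPM in I-BET151 livers. Its log2 fold changes against naive livers were -0.69 ± 0.14 and -1.003 ± 0.15 (edgeR adjusted p = 0.0126 and 0.00104; the latter 4.3e-04 without the third I-BET151 mouse, and the former 0.051 without the third naive mouse). Gstm7 was lower in I-BET151 than in naive livers, with a log2 fold change of -1.08 ± 0.22 (edgeR adjusted p = 0.00713). Without the third I-BET151 mouse it was -0.88 (edgeR adjusted p = 0.00113). In vehicle against naive livers, whose groups did not overlap, it was -0.55 ± 0.22. There the edgeR adjusted p was 0.154, and 0.00681 without the third I-BET151 mouse. In I-BET151 against vehicle livers it was -0.53 ± 0.22 (edgeR adjusted p = 0.51). Gstm1, the most abundant member of all, was at 807 to 858 CPM in naive, 848 to 1313 CPM in STAM vehicle and 404 to 1041 CPM in I-BET151 livers, and passed in no comparison. Gstm4 and Gstm2 likewise did not pass. Gstm2 had a log2 fold change of -0.67 ± 0.17 in I-BET151 against vehicle livers, whose groups did not overlap. The edgeR adjusted p was 0.168, and 0.0578 without the third I-BET151 mouse. In vehicle against naive livers, also without overlap, its log2 fold change was 0.52 ± 0.17. There the edgeR adjusted p was 0.0736, and 0.00585 without that mouse.

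Of the theta and kappa classes, Gstt1, whose enzyme handles small halogenated compounds, was lower in I-BET151 than in naive livers. It was at 138, 152, 133 and 162 CPM in naive, 107, 102, 128 and 105 CPM in STAM vehicle and 60.1, 95.1, 44.4 and 49.0 CPM in I-BET151 livers. The 3 groups followed each other without overlap. Its log2 fold change was -1.24 ± 0.21 in I-BET151 against naive livers (edgeR adjusted p = 0.00238; -1.12 and 0.00196 without the third I-BET151 mouse), while neither single step passed (-0.41 ± 0.20 and -0.83 ± 0.21, edgeR adjusted p = 0.264 and 0.168). Gstk1, the kappa enzyme of mitochondria and peroxisomes, had log2 fold changes of 0.01 and -0.48 in these steps, and Gstt2 of 0.05 and 0.32, and neither passed.

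Of the called members with at least 10 counts in every liver, Sult2a7 rose furthest against naive livers. SULT2 enzymes sulfate hydroxysteroids and bile acids, and the Sult2a genes form a cluster on chromosome 7. The most alike 101-base coding stretch of 4 of them is shown because they did not all move in 1 direction. Capitals stand where a base is not that of Sult2a7.
Sult2a7: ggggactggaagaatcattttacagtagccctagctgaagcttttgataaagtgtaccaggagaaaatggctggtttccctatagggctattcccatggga
Sult2a1: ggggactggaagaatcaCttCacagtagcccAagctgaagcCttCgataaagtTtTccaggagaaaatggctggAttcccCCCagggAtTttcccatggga
Sult2a2: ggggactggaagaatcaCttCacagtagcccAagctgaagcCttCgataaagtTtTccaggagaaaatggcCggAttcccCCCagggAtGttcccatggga
Sult2a8: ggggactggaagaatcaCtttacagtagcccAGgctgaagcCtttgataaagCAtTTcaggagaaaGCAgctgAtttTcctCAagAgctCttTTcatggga
The stretches lie at chr7:14465163-14465263, chr7:13796359-13796459, chr7:13779430-13779530 and chr7:14411711-14411811 (GRCm38), all on the minus strand but that of Sult2a2, which is on the plus strand. They differ from Sult2a7 at 13, 14 and 19 bases, whereas Sult2a1 and Sult2a2 differ from each other at 2 bases. No 101-base window of Sult2a7 recurs in another gene, and 11.3% of those of Sult2a1 and 34.3% of those of Sult2a2 do.

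Sult2a7 was at 1.38, 1.17, 0.988 and 2.501 CPM in naive, 8.05, 9.94, 9.03 and 10.6 CPM in STAM vehicle and 30.9, 26.03, 16.96 and 20.3 CPM in I-BET151 livers. The groups followed each other with no overlap. On the log2 scale the fold change was 2.64 ± 0.27 in vehicle against naive livers (edgeR adjusted p = 1.5e-04) and 1.32 ± 0.24 in I-BET151 against vehicle livers (edgeR adjusted p = 0.0526; 1.46 and 0.0132 without the third I-BET151 mouse). The first call stood in all 12 fits that left out 1 mouse. The second stood in 7, and it ended without any of the 4 vehicle mice or without the first I-BET151 mouse, with adjusted p of at most 0.178 in edgeR. In I-BET151 against naive livers the log2 fold change was 3.96 ± 0.28 (edgeR adjusted p = 6.4e-06; 4.08 and 3.2e-06 without the third I-BET151 mouse).

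Sult2a8, the most abundant Sult2 gene, went the other way. It was at 307, 506, 611 and 495 CPM in naive, 293, 225, 182 and 284 CPM in STAM vehicle and 260, 299, 166 and 73.3 CPM in I-BET151 livers. Both STAM groups lay below the naive group and overlapped each other. In the test, the log2 fold change was -0.96 ± 0.35 in vehicle against naive (edgeR adjusted p = 0.12) and -1.27 ± 0.36 in I-BET151 against naive livers (edgeR adjusted p = 0.0296; -1.20 and 0.0442 without the third I-BET151 mouse). The latter call ended without the second, the third or the fourth naive mouse (adjusted p of at most 0.0874 in edgeR). Sult5a1 had a log2 fold change of -0.82 ± 0.42 in I-BET151 against vehicle livers (edgeR adjusted p = 0.62), which became -1.39 without the third I-BET151 mouse (edgeR adjusted p = 0.0939, past the 0.1 threshold).

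Sult2a1 and Sult2a2 were scarcely present in naive livers, with 3, 2, 0 and 1 counts for Sult2a1 and 1, 0, 0 and 2 for Sult2a2. Sult2a1 had 79 counts in the 4 STAM vehicle livers and 108 in the I-BET151 livers, which are 10.5 and 14.7 times the naive level (95% exact intervals 4.62 to 29.5 and 6.55 to 41.0, counting error only). Sult2a2 had 60 and 57 counts, or 16.0 and 15.6 times the naive level (5.20 to 79.5 and 5.06 to 77.6). Both passed against naive livers in each STAM group (edgeR adjusted p = 0.019 for both in STAM vehicle and 0.00549 and 0.0122 in I-BET151 livers; 0.00239 and 0.00289 without the third I-BET151 mouse). They entered the test only through the STAM groups, and in STAM vehicle livers Sult2a1 was called in 8 and Sult2a2 in 9 of 12 fits that left out 1 mouse. Reads of the 2 genes can be confused, as the stretches above show.

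**Figure D4:**
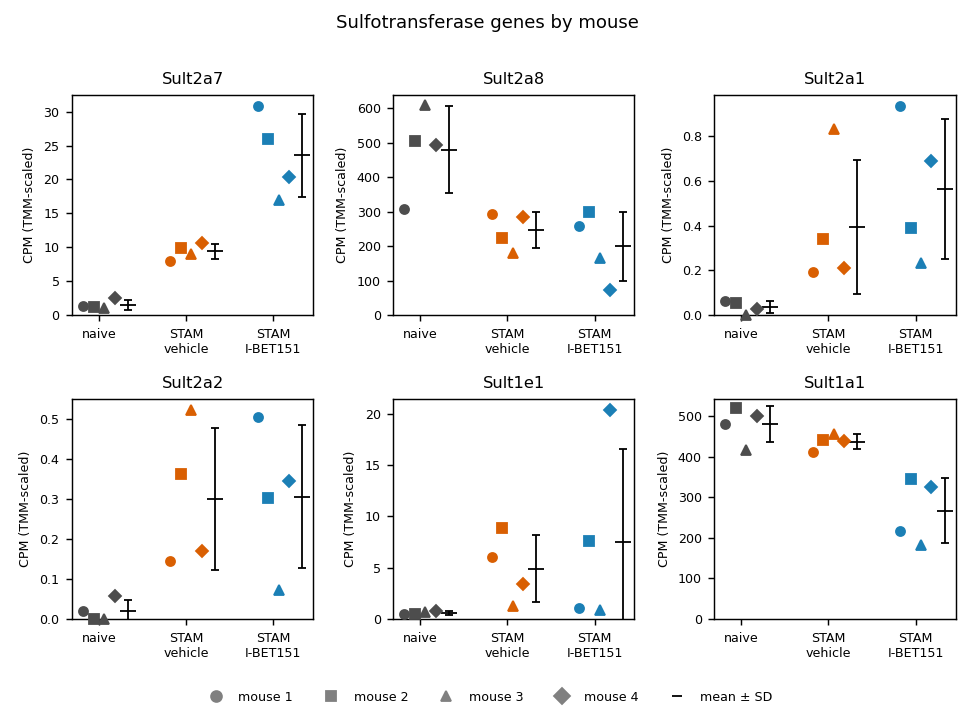
TMM-scaled CPM (y axis, from 0, so SD bars that pass below 0 are cut) of 6 SULT genes in each mouse, with mean and SD of 4 mice. Sult2a7 climbs from 0.988 to 2.501 CPM in naive livers to 16.96 to 30.9 CPM in I-BET151 livers, Sult2a8 descends, and Sult1e1 is led by the fourth I-BET151 mouse at 20.3 CPM.

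The SULT1 genes fell into an abundant and a rare set. Sult1a1, the phenol sulfotransferase, was at 480, 521, 418 and 502 CPM in naive, 412, 442, 455 and 439 CPM in STAM vehicle and 218, 345, 182 and 325 CPM in I-BET151 livers. The I-BET151 livers lay below both other groups. Its log2 fold change was -0.84 ± 0.20 against naive (edgeR adjusted p = 0.0144; -0.71 and 0.00714 without the third I-BET151 mouse; 0.0506 without the second naive mouse) and -0.71 ± 0.20 against vehicle livers (edgeR adjusted p = 0.255). Sult1e1, which sulfates oestrogens, was at 0.45 to 0.805 CPM in naive livers, at 6.06, 8.84, 1.31 and 3.37 CPM in STAM vehicle livers and at 1.04, 7.65, 0.914 and 20.3 CPM in I-BET151 livers. Every STAM liver was above every naive one. The STAM livers varied from 0.914 to 20.3 CPM. On the log2 scale the fold change against naive livers was 3.06 ± 0.91 in STAM vehicle livers. The edgeR adjusted p was 0.0604, and 0.019 without the third I-BET151 mouse. In I-BET151 livers the fold change was 3.66 ± 0.93 (edgeR adjusted p = 0.0188), and 4.03 without that mouse (edgeR adjusted p = 0.00623). This fold change in I-BET151 livers was 2.41 without the fourth I-BET151 mouse, and its call also ended without the second or the third naive mouse. Sult1d1 and Sult1b1, whose enzymes act on catecholamines and thyroid hormones, passed in no comparison.

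The UGT1A genes share 1 set of common exons on chromosome 1, and each has its own first exon, which sets the substrate. From 50.3% to 82.7% of their exonic bases are shared with another gene, so their counts rest on the first exons. A 101-base stretch of the first exon is shown for 4 of them, because Ugt1a5 fell in vehicle against naive livers and Ugt1a9 in I-BET151 against vehicle livers, with capitals where a base is not that of Ugt1a1.
Ugt1a1: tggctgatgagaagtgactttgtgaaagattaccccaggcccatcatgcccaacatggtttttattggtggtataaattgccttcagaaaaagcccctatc
Ugt1a2: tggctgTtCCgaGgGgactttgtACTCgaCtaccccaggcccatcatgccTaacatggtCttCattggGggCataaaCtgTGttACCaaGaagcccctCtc
Ugt1a5: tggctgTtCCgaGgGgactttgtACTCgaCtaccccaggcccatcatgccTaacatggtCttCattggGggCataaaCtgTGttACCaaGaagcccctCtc
Ugt1a9: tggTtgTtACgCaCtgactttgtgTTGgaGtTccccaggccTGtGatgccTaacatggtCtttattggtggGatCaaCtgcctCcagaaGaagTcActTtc
The stretches lie on the plus strand at chr1:88212767-88212867, chr1:88201396-88201496, chr1:88166799-88166899 and chr1:88071574-88071674 (GRCm38). Ugt1a2, Ugt1a5 and Ugt1a9 differ from Ugt1a1 at 23, 23 and 24 bases. Ugt1a2 and Ugt1a5 differ from each other at 0 bases here, so a read from this stretch cannot by itself be given to either. Reads were paired, and the other read of a pair can lie outside it. The stretch was picked where the others are most like Ugt1a1. The whole coding sequences of Ugt1a2 and Ugt1a5 were 89.9% identical.

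Ugt1a5 fell in STAM livers. It was at 24.9, 26.3, 25.0 and 25.7 CPM in naive, 5.50, 6.53, 5.40 and 5.58 CPM in STAM vehicle and 5.42, 9.70, 2.67 and 9.95 CPM in I-BET151 livers. The naive livers were within a narrow band far above all others, and the 2 STAM groups overlapped. In the test, the log2 fold change was -2.15 ± 0.30 in vehicle (edgeR adjusted p = 0.00122) and -1.89 ± 0.30 in I-BET151 against naive livers (edgeR adjusted p = 0.00177; -1.63 and 2.0e-04 without the third mouse). Both calls stood in all 12 fits that left out 1 mouse. The rare Ugt1a2 fell alongside, from 0.316 to 0.669 CPM in naive to 0.0774 to 0.229 CPM in STAM vehicle livers, with log2 fold changes of -1.94 ± 0.42 and -1.70 ± 0.42 (edgeR adjusted p = 0.0151 and 0.0166; the latter 0.0232 without the third I-BET151 mouse), from at most 23 counts in a liver. Ugt1a2 passed the filter on low counts only through the naive group, where it was high. These calls stood in 9 and 11 of 12 fits that left out 1 mouse, and both ended without the third naive mouse.

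In I-BET151 against vehicle livers 14 of 18 tested UGT genes had a log2 fold change below 0. The only one called there was Ugt1a9, whose enzyme conjugates phenolic drugs. It was at 58.4, 61.0, 91.0 and 73.3 CPM in naive, 109, 60.6, 81.5 and 68.5 CPM in STAM vehicle and 23.6, 40.4, 18.6 and 16.4 CPM in I-BET151 livers. The I-BET151 livers lay below both other groups, which overlapped. Its log2 fold change was -1.69 ± 0.27 against vehicle (edgeR adjusted p = 0.0352; -1.57 and 0.0274 without the third I-BET151 mouse) and -1.52 ± 0.27 against naive livers (edgeR adjusted p = 0.0035; -1.42 and 0.00512 without that mouse), and 0.17 ± 0.27 in vehicle against naive livers (edgeR adjusted p = 0.748). The call against vehicle stood in 11 of 12 fits that left out 1 mouse and ended without the first I-BET151 mouse (adjusted p = 0.133 in edgeR). On each of the 3 sequencing lanes that held a vehicle and an I-BET151 library, the I-BET151 level of Ugt1a9 was 0.216 to 0.24 times that of vehicle, that of Gstp3 1.42 to 2.76 times and that of Sult2a7 1.88 to 3.84 times. The direction of these ratios was fixed, since the groups did not overlap. With lane as a covariate the edgeR adjusted p was 0.107, 0.194 and 0.235 for the 3 genes in this order, and with only these 2 groups fitted it was 0.137, 0.143 and 0.0816.

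Ugt1a1, the bilirubin enzyme, was at 130 to 154 CPM in naive, 100 to 120 CPM in STAM vehicle and 146, 158, 61.1 and 156 CPM in I-BET151 livers. The first, the second and the fourth I-BET151 liver were above all vehicle livers and the third was below them, with a log2 fold change of 0.19 ± 0.23 (edgeR adjusted p = 0.887), which became 0.43 without the third mouse (edgeR adjusted p = 0.0576, past the 0.1 threshold). In vehicle against naive livers, whose groups did not overlap, Ugt1a1 had a log2 fold change of -0.33 ± 0.23. There the edgeR adjusted p was 0.445, and 0.0158 without the third I-BET151 mouse. Ugt1a6b, for planar phenols, passed in no comparison. Ugt1a10 was lower in I-BET151 than in naive livers, with a log2 fold change of -2.01 ± 0.53 from at most 39 counts in a liver. The edgeR adjusted p was 0.0235, and 0.0185 without the third I-BET151 mouse. This call ended without the third or the fourth naive mouse or the fourth I-BET151 mouse (adjusted p of at most 0.0668 in edgeR). In vehicle against naive livers its groups did not overlap (-1.48 ± 0.51). There the edgeR adjusted p was 0.0973, and 0.0419 without the third I-BET151 mouse.

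**Figure D5:**
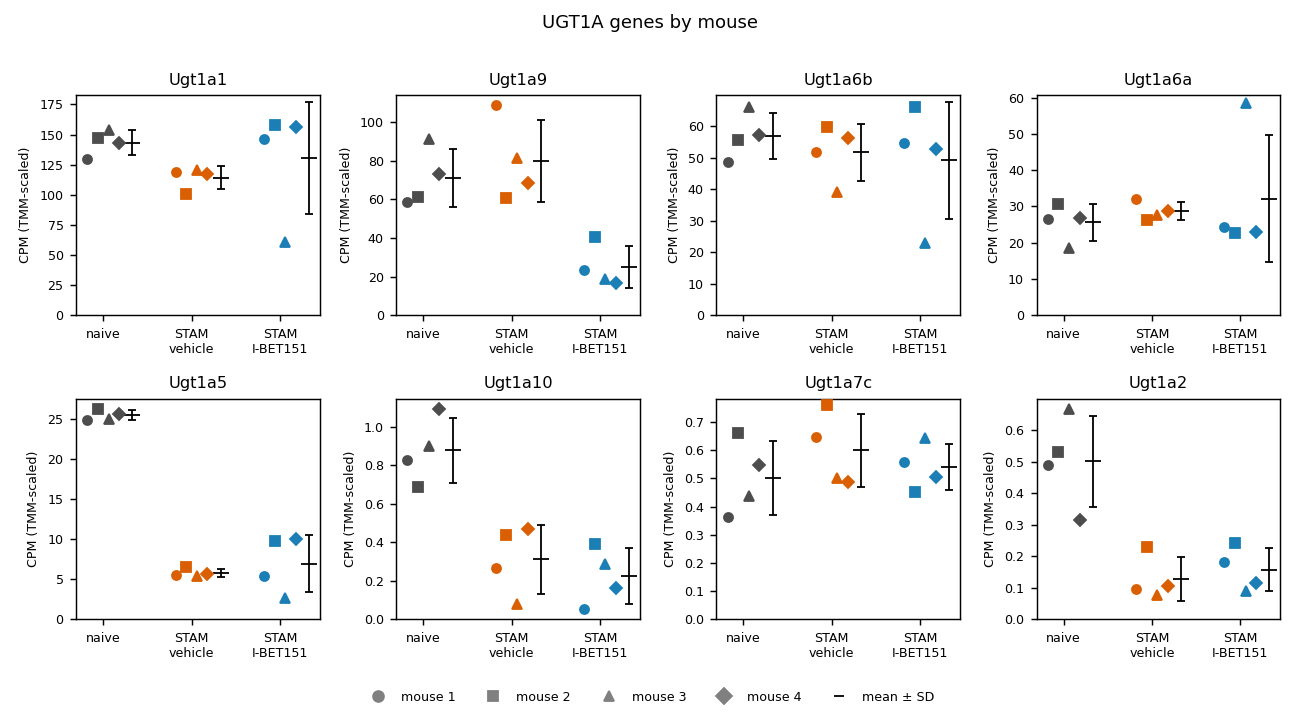
TMM-scaled CPM (y axis, from 0) of the 8 tested UGT1A genes in each mouse, with mean and SD of 4 mice. Ugt1a5 drops from 24.9 to 26.3 CPM in naive livers to at most 9.95 CPM in the STAM livers, and Ugt1a9 is lowest in the I-BET151 livers.

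The UGT2 genes, which act on steroids, bile acids and fatty acids, were lower in I-BET151 than in naive livers where they passed. Ugt2b1 was at 171, 245, 441 and 327 CPM in naive, 162, 145, 66.3 and 171 CPM in STAM vehicle and 43.9, 95.3, 39.5 and 19.97 CPM in I-BET151 livers. The I-BET151 livers were below all naive livers, and the second of them was above 1 vehicle liver. On the log2 scale the fold change against naive livers was -2.58 ± 0.45 (edgeR adjusted p = 0.00293; -2.497 and 0.00535 without the third I-BET151 mouse), and those of the single steps were -1.12 ± 0.43 and -1.46 ± 0.43 (edgeR adjusted p = 0.136 and 0.294). Ugt2a3 was at 126 to 179 CPM in naive, 63.2 to 101 CPM in STAM vehicle and 35.4 to 113 CPM in I-BET151 livers. Both STAM groups lay below the naive group. Its log2 fold change was -1.34 ± 0.29 in I-BET151 against naive livers (edgeR adjusted p = 0.00963). Without the third I-BET151 mouse it was -1.15 (edgeR adjusted p = 0.00884). In vehicle against naive livers it was -0.89 ± 0.29 (edgeR adjusted p = 0.0822, and 0.0163 without that mouse). In I-BET151 against vehicle livers it was -0.45 ± 0.29 (edgeR adjusted p = 0.721). The more abundant Ugt2b5, Ugt2b36 and Ugt2b34 passed in no comparison, with log2 fold changes of -0.78, -0.61 and -0.15 in I-BET151 against naive livers. Ugt2b5 and Ugt2b38 repeat 24.6% and 24.1% of their windows in another gene, most of them in each other.

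Both UGT3A genes, whose enzymes use sugars other than glucuronic acid, were lower in I-BET151 than in naive livers. Ugt3a1 was at 116, 131, 149 and 140 CPM in naive, 88.3, 80.7, 71.5 and 91.1 CPM in STAM vehicle and 49.5, 70.2, 28.6 and 43.7 CPM in I-BET151 livers. The 3 groups followed each other without overlap. Its log2 fold change was -1.48 ± 0.22 in I-BET151 against naive livers (edgeR adjusted p = 0.00107). Without the third I-BET151 mouse it was -1.31 (edgeR adjusted p = 3.5e-04). In the single steps it was -0.69 ± 0.21 and -0.79 ± 0.21 (edgeR adjusted p = 0.0682 and 0.228). Both steps passed their thresholds without the third I-BET151 mouse (edgeR adjusted p = 0.00503 and 0.0958). Ugt3a2 had a log2 fold change of -0.82 ± 0.26 in I-BET151 against naive livers (edgeR adjusted p = 0.0461). Without the third I-BET151 mouse it was -0.60 (edgeR adjusted p = 0.0128). The call stood in 2 of 12 fits that left out 1 mouse. In the single steps it was -0.29 ± 0.25 and -0.53 ± 0.25 (edgeR adjusted p = 0.5445 and 0.591).

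The other 14 members were not tested. Sult1c1, Sult2a6 and Ugt2a1 had 0 counts in all 12 livers. For Sult1c1 and Sult2a6 this allows a level of up to 0.0537 to 0.0904 CPM a liver (3 counts of the library, counting error only). The other 11 had at most 9 counts in a liver. They were Gstt4, Sult2a3, Sult2a4, Sult2a5, Sult2b1, Sult3a2, Sult4a1, Sult6b1, Sult6b2, Ugt1a8 and Ugt2a2. Ugt2a1 and Ugt2a2 share 98.8% and 94.5% of their exonic bases with another gene. Low counts of uniquely assigned reads therefore set no bound on the level of these genes.

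Genes that serve the same reactions were called in shares that are read against 7.10% of all genes in vehicle and 15.1% in I-BET151 against naive livers. Of 18 genes for cofactor supply, 3 were higher and 1 lower in vehicle against naive livers: Slc7a11, the cystine importer for glutathione synthesis (log2 fold change 2.66), Ggt1, which cleaves glutathione (1.66), Slc35b1, a nucleotide carrier (0.59), and Papss2, which makes PAPS (-0.64). In I-BET151 against naive livers 5 were higher and 3 lower, led by Papss2 (-1.02), Cbs (-1.23), Slc26a1 (-0.87) and Slc7a11 (1.81). Of 20 other conjugation enzymes, Mgst2 was higher (1.74) and Ephx2 lower (-1.04) in vehicle livers, and 1 was higher and 3 lower in I-BET151 against naive livers, with Nat8 (-2.08), Ephx2 (-1.14), Mgst2 (1.59) and Gstz1 (-0.58), counts near those shares. Of 20 NRF2 targets outside the members, 7 were higher and 0 lower in vehicle livers, among them Pgd (0.83), Gpx2 (3.86), Slc7a11 and Cbr3 (3.13), and 5 were higher and 1 lower in I-BET151 against naive livers. Some genes stand in more than 1 of these lists.

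Among 22 xenobiotic and lipid receptors and related factors, Ghr, the growth hormone receptor (-0.93), and Ppara (-0.76) were lower and Arnt (0.45) was higher in I-BET151 against naive livers. The share called in this list was near the 15.1% of all tested genes, so nothing is read from it. Of 12 male-biased liver genes, Slco1a1 (-2.28) and Hsd3b5 (-3.06) were lower in vehicle livers, and 4 were lower in I-BET151 against naive livers, beside 7.10% and 15.1% of all genes, so nothing is read from so few genes. Of 12 tested female-biased liver genes, 4 were higher and 2 lower in vehicle livers, with Cyp2a4 (2.58), Cyp2b13 (7.06), Cyp2b9 (6.19) and Cyp3a41b (-1.75), and 4 were higher and 3 lower in I-BET151 against naive livers. Sult2a1 and Sult2a2 are known as female-biased in mouse liver. The sex bias of the other members is not given here, so nothing is read from these 2. None of the genes of these lists passed in I-BET151 against vehicle livers.

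Of the marker lists for other cell types, 4 of 6 Kupffer cell and macrophage genes were higher in vehicle livers (155 to 222 CPM summed in naive, 264 to 505 in STAM vehicle and 196 to 449 in I-BET151 livers) and 3 of 6 in I-BET151 against naive livers. Among all tested genes 5.72% were called higher in vehicle livers, and 9.88% higher and 5.25% lower in I-BET151 against naive livers. In vehicle against naive livers, Rgs5 of 6 stellate, Cd8a of 6 T cell, Mmp9 of 4 tested neutrophil and Cfd of 2 tested adipocyte genes were higher, and none of the 6 cholangiocyte, 6 endothelial, 6 B cell and 6 erythroid genes passed. Single calls in lists this short are not read as results. In I-BET151 against vehicle livers Cd4 alone passed, and it was lower (log2 fold change -1.77). All 6 T cell genes were below 0 there, with a median of -1.21. For 5 of 6 the groups did not overlap, against 5.04% of all tested genes. The T cell genes summed to 6.00 to 8.13 CPM in vehicle and 2.56 to 3.48 CPM in I-BET151 livers. In I-BET151 against naive livers Krt7, Rgs5, Mmp9, Cfd and Fabp4 were higher and Reln and Alas2 lower. Pancreatic acinar genes summed to at most 0.144 CPM. The part of these cell types in the member results was not tested.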

How the data were processed

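RNA was isolated from whole liver of 12 mice, made into stranded mRNA libraries and sequenced on an Illumina HiSeq. The authors aligned reads with STAR 2.5.1b to mm10 (per the submitters' processing notes) and deposited whole-number counts per gene of uniquely mapped reads, 1 file a mouse, with no normalization. The study's methods name htseq-count. The strand setting and annotation release are not given in the sources used here. Symbols, positions and exons came from GENCODE M21 by Ensembl identifier (47310 of 47729 matched), and promoters from RefSeq (53 of 61 members).

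Counts were fitted in R 4.3.3 with edgeR 4.0.16 (TMM, filterByExpr with a minimum count of 10, quasi-likelihood F test), all 12 mice in 1 fit, with Benjamini-Hochberg adjustment over 16823 genes. Calls were made at an adjusted p of 0.05 against naive and 0.1 for I-BET151 against vehicle livers. The SE is the log2 fold change divided by the square root of F. DESeq2 1.42.0 was an alternative. Other steps used Python 3.11.15, pandas 2.3.3, NumPy 2.4.6, SciPy 1.17.1 and Matplotlib 3.10.9. The fits were tested on simulated counts with known changes.

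The members and lists were chosen with earlier results of these data known. Named are every member called, the 3 highest per kilobase of each family, tested members with a log2 fold change of at least 1 and no overlap, Gstp3, and, of the other lists, called genes, at most 4 a list and comparison. The study left out 1 I-BET151 library without naming it, and all 4 were used here. Depth limits counts below 3 a library, and intervals cover counting error only. Mice of a group are separate samples by their labels. No replicate pair agreed within sampling noise (chi-square per degree of freedom of at least 30.5). One gene of the receptor list is not reported here.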

Additional observations from a re-analysis of the deposited data

Results flagged for a closer look

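Among 114 groups of 4 mice over the named members, 6 held a mouse far from the other 3 by Dixon's test at its 95% critical value, and chance flags about 1 in 20 groups. Gsta2 was at 32.6 CPM in the second I-BET151 mouse, and at 7.81 to 10.7 CPM in the others. Ugt1a1 was at 61.1 CPM in the third I-BET151 mouse, which stands apart in other measures too, and at 146 to 158 CPM in the others. Ugt1a1 was at 100.4 CPM in the second STAM vehicle mouse, and at 117 to 120 CPM in the others. Ugt1a5 was at 6.53 CPM in the same mouse, and at 5.40 to 5.58 CPM in the others. Gstm2 was at 43.8 CPM in the third naive mouse, and at 35.4 to 35.8 CPM in the others. Gstp3 was at 6.08 CPM in the third naive mouse, and at 6.99 to 7.15 CPM in the others.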

How the results depend on the processing

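In vehicle against naive livers DESeq2 called 14 of 58 members and 6.46% of all tested genes. The fit of only the 2 groups called 19 of 44 and 23.9%, and that with sequencing lane as a covariate 1 of 47 and 0.22%. At adjusted p of 0.01 and 0.1 the main fit called 3 and 14, and 2.29% and 12.2% of all tested genes. At its own threshold it called 9 of 47 and 7.10%. In I-BET151 against vehicle livers DESeq2 called 9 of 58 members and 0.906% of all tested genes. The 2 groups alone gave 1 of 46 and 0.048%, the replicate block 0 and 0.0594%, and the lane 0 and 0%. At 0.01 these were 0 and 0.0119%, where the main fit called 3 of 47 and 0.351%. In I-BET151 against naive livers the lane fit called 3 of 47 members and 0.505% of all tested genes. At 0.01 these were 11 and 4.86%, where the main fit called 19 and 15.1%. DESeq2 without the third I-BET151 mouse, chosen after seeing the data, called 19, 12 and 22 of 58, beside 15%, 4.42% and 14.1% of all tested genes. Leaving out 1 mouse at a time gave 4 to 18, 0 to 8 and 13 to 28 members. The shares of all tested genes then ranged from 3.17% to 22.3%, 0.0762% to 2.38% and 7.49% to 21.7%. For members called in a comparison, or with a log2 fold change of at least 1 and no overlap in it, no log2 fold change in that comparison reversed under any alternative run, while calls were lost in 94 refits and gained in 11. Members closer to 0 were not followed in this way. Per kilobase of exon not shared with another gene instead of all exon, mean levels became 336 CPM per kb for Ugt1a1 (58.1 before), 66.6 for Ugt1a9 (26.7), 56.2 for Ugt1a6b (22.1), 14.3 for Ugt1a5 (5.78), 0.582 for Ugt1a10 (0.208) and 0.291 for Ugt1a2 (0.118). Family sums moved by less than 1 SD under RLE normalization. Mice with the same number did not deviate together (mean correlations of -0.07, -0.06 and -0.15), so the number was not taken as a pairing. With the number as a block 7, 0 and 15 members were called, beside 4.41%, 0.0594% and 9.35% of all tested genes. The lane fit has 4 residual degrees of freedom, and 6 lanes held the 12 libraries. At a level of a few counts, as for Sult2a1, Sult2a2, Ugt1a2 and Ugt1a10, depth limits the values. Where each mouse had to hold 10 counts of a gene or more, 6, 3 and 15 of 42 members were called. The shares of all genes were 6.35%, 0.436% and 15.3% there.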
